A study of Rattus norvegicus with 12 samples.

Results

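The genes described here are 10 genes of T cell receptor signalling and costimulation: Cd3e, Cd8b, Cd2, Cd5, Cd28, Icos, Ctla4, Lck, Zap70 and Tcf7. They were taken by symbol from a table of 33801 gene rows, and the rule itself uses no measured value, although the genes were put together with earlier results of these data known. Each symbol stood on 1 row, and those rows overlapped 0 other gene rows. All 10 passed the filter on low values, which asked for at least 1 FPKM in at least 3 libraries and left 15268 genes to test. FPKM is the number of fragments per kilobase of gene, scaled by a library size, so levels of different genes can be set side by side. Without the loaded Nb3 libraries 8 of the 10 would still have passed. Cd28 and Ctla4 passed only with them, so a higher level in that group was part of how these 2 genes came to be tested.

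The libraries came from bone of 4 mm diameter collected around mini implants that had been placed in the upper jaw of wild-type rats, where the first molar sits. The implants were titanium, labelled cpTi, or the alloy Zr58Cu25Al14Nb3, called Nb3 here, and both kinds were either loaded cyclically for 2 weeks or kept static. This gave 4 groups of 3 libraries each: loaded Nb3, non-loaded Nb3, loaded cpTi and non-loaded cpTi. Every group carried an implant, so bone without an implant was not compared. Whether the 3 replicates of a group are 3 rats is not stated in the labels, so a p-value here measures only the spread between libraries, which may be technical.

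T cells recognise antigen with a receptor whose signal is passed on by the CD3 chains. The kinase LCK, brought in by the CD4 and CD8 coreceptors, phosphorylates those chains, and ZAP70 then docks on them and activates the adaptors LAT and SLP-76. A second signal comes from costimulatory receptors: CD28 and ICOS promote activation when they bind ligands on antigen-presenting cells, CTLA4 competes with CD28 for the same ligands and restrains it, and CD2 and CD5 act at the contact between both cells. In bone and marrow, T cells are known as a source of cytokines that act on osteoclasts and osteoblasts.

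The sequences just upstream of the genes are shown for the 2 members with the largest differences (Cd2 and Icos), for Ctla4, the neighbour of Icos on the chromosome, and for Lck, whose level differed least. Each is the 250 bases before a gene start in RefSeq's GRCr8 assembly, read 5′ to 3′ on the gene's strand. Capitals mark matches on either strand to 5 short motifs of transcription factor families that act in T cells, spelled out with the counts that follow the sequences.
Cd2 (chr2:191412660-191412909, minus strand): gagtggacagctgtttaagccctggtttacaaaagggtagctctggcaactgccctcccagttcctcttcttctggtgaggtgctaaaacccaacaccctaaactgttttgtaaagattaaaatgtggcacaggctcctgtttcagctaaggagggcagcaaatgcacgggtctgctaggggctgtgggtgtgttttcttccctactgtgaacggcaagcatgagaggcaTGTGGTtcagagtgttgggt
Icos (chr9:69877549-69877798, plus strand): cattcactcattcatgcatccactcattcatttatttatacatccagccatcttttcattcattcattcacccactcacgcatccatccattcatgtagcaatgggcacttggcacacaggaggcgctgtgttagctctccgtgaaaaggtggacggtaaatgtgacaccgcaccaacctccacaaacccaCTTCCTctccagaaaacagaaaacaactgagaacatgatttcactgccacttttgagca
Ctla4 (chr9:69813171-69813420, plus strand): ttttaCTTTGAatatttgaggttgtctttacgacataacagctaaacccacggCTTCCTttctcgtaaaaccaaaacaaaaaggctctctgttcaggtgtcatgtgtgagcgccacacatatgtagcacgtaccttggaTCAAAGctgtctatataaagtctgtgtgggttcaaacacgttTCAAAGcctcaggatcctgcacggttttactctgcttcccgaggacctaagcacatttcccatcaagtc
Lck (chr5:147201268-147201517, minus strand, the first of 2 starts): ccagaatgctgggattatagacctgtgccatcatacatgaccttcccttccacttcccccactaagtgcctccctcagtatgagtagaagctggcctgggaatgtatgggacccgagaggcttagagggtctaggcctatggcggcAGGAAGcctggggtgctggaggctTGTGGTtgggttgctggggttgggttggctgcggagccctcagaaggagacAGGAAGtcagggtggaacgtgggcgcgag

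The Cd2 window held a RUNX match 20 bases before the start and the Icos window an ETS match 59 bases before it. The Ctla4 window held 3 TCF/LEF matches, at 69, 111 and 245 bases, and an ETS match at 197 bases. In the printed Lck window lay 2 ETS matches, at 29 and 104 bases, and a RUNX match at 80 bases. RefSeq windows were matched for 9 of the 10 genes, all but Cd8b, and gave 10 windows. The ETS letters searched were AGGAAG, and they stood in 8 of these 10 windows against 29.5% of 33469 rat promoter windows of the same length. The RUNX letters, TGTGGT, stood in 3 windows (14.5% of all windows). Those of TCF/LEF, the family of Tcf7 itself, were CTTTGA and stood in 2 (13.9%). The NFAT letters GGAAAA stood in 1 (21.6%). The GATA letters AGATAA also stood in 1 (10.3%). A match is a run of letters and not a measured site.

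The libraries held 12.9 M to 22.3 M reads on genes. The loaded Nb3 libraries stood apart from the other 9. Their correlation with the others across genes was 0.731 to 0.866, against 0.932 to 0.969 among the other 9. Mitochondrial genes took 11.97%, 24.3% and 11.3% of the reads in loaded Nb3 replicates 1, 2 and 3, and 4.31 to 6.86% in the rest. The 11 bone genes checked, among them Col1a1, were detected in every group, with summed levels of 7202 to 20544 FPKM in loaded Nb3 and 3921 to 12900 FPKM in the other groups. The part of these differences between libraries in the results below was not tested.

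**Figure D1:**
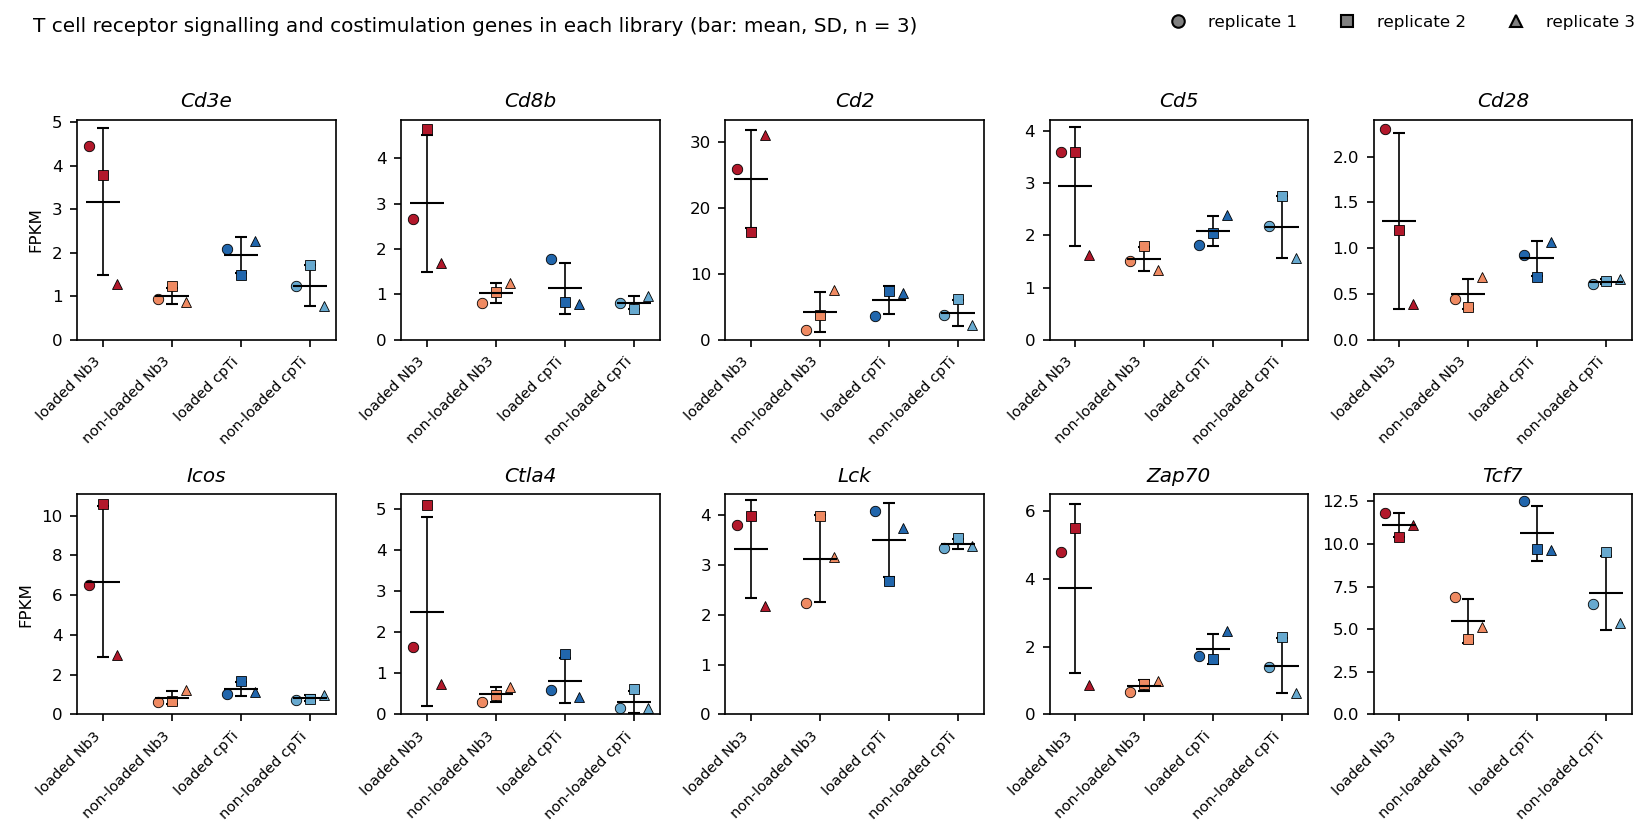
FPKM (y axis) of the 10 genes in each of the 12 libraries, by group (x axis), with a separate linear scale from 0 for each gene. Points are libraries, with the replicate number given by the shape, and bars are the mean and SD of 3 libraries. Cd2 and Icos are higher in all 3 loaded Nb3 libraries than in any other library, and Lck lies between 2.18 and 4.08 FPKM throughout.

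Beside the Nb3 alloy, 6 of the 10 genes were higher with loading than without: Cd2, Icos, Zap70, Cd3e, Tcf7 and Cd8b. None was lower. A call here and below came from limma on log2(FPKM + 1), at a Benjamini-Hochberg adjusted p under 0.05 over all tested genes. In the same comparison 20.7% of all tested genes were called higher, 25.2% lower and 45.8% either way. The median difference of the 10 genes was 0.94 on the log2 scale, and that of all tested genes was -0.02. The bone was sequenced in bulk, and FPKM is relative to the other RNA of a library. A higher level therefore need not mean more T cells or more RNA per T cell, and these cannot be told apart.

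The receptor complex is represented by Cd3e (ENSRNOG00000016069, chr8:45303852-45315022, minus strand, positions of genes being those of the deposited table, whose build is not given in the sources used here). It encodes the CD3 epsilon chain, a part of every T cell receptor. Cd3e had 4.46, 3.796 and 1.28 FPKM in loaded Nb3 replicates 1, 2 and 3 and 0.931, 1.23 and 0.874 FPKM in the non-loaded ones. Beside cpTi it had 2.10, 1.48 and 2.27 FPKM with loading and 1.24, 1.71 and 0.770 FPKM without. Loaded Nb3 replicate 3 lay just above the highest non-loaded Nb3 library, inside the range of non-loaded cpTi and below every loaded cpTi library, while replicates 1 and 2 lay above every other library. The difference by loading beside Nb3 was 0.96 (SE 0.30, limma adjusted p = 0.0225). The call was lost without loaded Nb3 replicate 1 (adjusted p = 0.0914) or 2 (0.0696), without non-loaded Nb3 replicate 1 (0.0557) or 3 (0.0669), and in a fit of the compared groups alone (0.0695).

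Cd8b (ENSRNOG00000007129, chr4:103312578-103328553, plus strand) encodes the beta chain of the CD8 coreceptor, found on cytotoxic T cells. Its levels in loaded Nb3 were 2.67, 4.65 and 1.69 FPKM, and those in non-loaded Nb3 were 0.803, 1.05 and 1.24 FPKM. In loaded cpTi it had 1.77, 0.824 and 0.795 FPKM, and in non-loaded cpTi 0.816, 0.683 and 0.963 FPKM. The Nb3 groups did not overlap, but loaded cpTi replicate 1 reached the lowest loaded Nb3 library. Loading beside Nb3 gave a difference of 0.92 (SE 0.27, limma adjusted p = 0.0164), which missed the threshold without loaded Nb3 replicate 2 (0.64, adjusted p = 0.0558) or non-loaded Nb3 replicate 1 (0.84, adjusted p = 0.0522).

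Cd2 (ENSRNOG00000015821, chr2:188710900-188724026, minus strand) encodes an adhesion receptor of T and natural killer cells that binds CD48 in rodents. It had 25.8, 16.3 and 31.0 FPKM in loaded Nb3, and 1.48, 3.76 and 7.52 FPKM in non-loaded Nb3. Loaded cpTi gave 3.59, 7.36 and 7.10 FPKM and non-loaded cpTi 3.69, 6.16 and 2.21 FPKM. Every loaded Nb3 library was above every other library, and replicate 3, which was low for Cd3e, was the highest of all for Cd2. The difference by loading beside Nb3 was 2.40 (SE 0.45, limma adjusted p = 0.00134), and the call held under all 14 alternatives run, with values of 1.95 to 2.84.

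Cd5 (ENSRNOG00000020872, chr1:207365337-207386313, minus strand) encodes a scavenger-receptor family protein of T cells and a subset of B cells that dampens receptor signals. Its levels were 3.59, 3.60 and 1.62 FPKM in loaded Nb3 and 1.50, 1.80 and 1.33 FPKM in non-loaded Nb3. They were 1.81, 2.04 and 2.40 FPKM in loaded cpTi and 2.18, 2.75 and 1.57 FPKM in non-loaded cpTi. Replicates 1 and 2 of loaded Nb3 were the highest libraries, and replicate 3 lay among the non-loaded ones. The difference beside Nb3 was 0.59 (SE 0.23) and missed the threshold (limma adjusted p = 0.0600). Without loaded Nb3 replicate 3 it was 0.86 and passed (adjusted p = 0.00528).

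The 3 members of the CD28 family lie together on chromosome 9 within 239 kb, in the order Cd28 (ENSRNOG00000010283, chr9:62166192-62194685), Ctla4 (ENSRNOG00000054129, chr9:62319312-62324963) and Icos (ENSRNOG00000046196, chr9:62383832-62405672), all on the plus strand. Cd28 and Ctla4 are 125 kb apart with 1 gene row between them, and Ctla4 and Icos are 58.9 kb apart with 0 rows between. Of these neighbours only Icos was called for loading beside Nb3, and whether their differences differ from each other was not tested.

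Icos, the inducible costimulator that T cells display after activation, had 6.49, 10.6 and 2.97 FPKM in loaded Nb3 and 0.631, 0.678 and 1.22 FPKM in non-loaded Nb3. It had 1.03, 1.69 and 1.14 FPKM in loaded cpTi and 0.736, 0.759 and 1.004 FPKM in non-loaded cpTi. All 3 loaded Nb3 libraries were above the other 9, and within cpTi the loaded libraries were also all above the non-loaded ones, by a smaller margin. Loading beside Nb3 gave a difference of 1.94 (SE 0.32, limma adjusted p = 0.000645), called under all 14 alternatives run.

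Ctla4, the inhibitory receptor of the family, rested on few reads: 2 in non-loaded cpTi replicates 1 and 3, and at most 78. It had 1.64, 5.09 and 0.749 FPKM in loaded Nb3 and 0.306, 0.483 and 0.672 FPKM in non-loaded Nb3. Its levels in loaded cpTi were 0.590, 1.46 and 0.423 FPKM, and in non-loaded cpTi 0.150, 0.614 and 0.160 FPKM. Loaded Nb3 replicate 2 was the highest library, and replicate 3 lay only just above the non-loaded Nb3 range. The difference of 1.04 (SE 0.40) missed the threshold (limma adjusted p = 0.0523) and passed it without loaded Nb3 replicate 3 (1.44, adjusted p = 0.0103), after quantile normalization (1.16, adjusted p = 0.0315) and with a replicate block (adjusted p = 0.0277).

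Cd28, the main costimulatory receptor of resting T cells, had 2.31, 1.20 and 0.389 FPKM in loaded Nb3 and 0.449, 0.362 and 0.681 FPKM in non-loaded Nb3. Loaded cpTi gave 0.924, 0.685 and 1.06 FPKM and non-loaded cpTi 0.607, 0.641 and 0.660 FPKM. Loaded Nb3 replicate 3 was lower than all but 1 of the other 11 libraries, and replicates 1 and 2 were the highest. The difference beside Nb3 was 0.54 (SE 0.28, limma adjusted p = 0.135), and it passed without that library (0.86, adjusted p = 0.0122) and after quantile normalization (0.73, adjusted p = 0.0415).

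Of the 2 kinases, Zap70 (ENSRNOG00000016995, chr9:38989750-39011700, plus strand) had 4.77, 5.50 and 0.879 FPKM in loaded Nb3 and 0.658, 0.892 and 0.982 FPKM in non-loaded Nb3. It had 1.71, 1.64 and 2.45 FPKM in loaded cpTi and 1.41, 2.27 and 0.639 FPKM in non-loaded cpTi. Replicates 1 and 2 of loaded Nb3 were the highest libraries of all, and replicate 3 lay inside the non-loaded Nb3 range. Its difference of 1.17 (SE 0.42, limma adjusted p = 0.0389) was called, but 8 of the 14 alternatives lost the call. These were each of 5 single libraries left out (all Nb3 libraries other than loaded replicate 3, adjusted p = 0.0742 to 0.134), the fit of the compared groups alone (0.0946), limma-voom on reads (0.0899) and no filter (0.0649).

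Lck (ENSRNOG00000009705, chr5:141888326-141903794, minus strand), the kinase upstream of ZAP70, rested on 226 to 469 reads per library. It had 3.79, 3.98 and 2.18 FPKM in loaded Nb3 and 2.24, 3.97 and 3.16 FPKM in non-loaded Nb3. It had 4.08, 2.67 and 3.73 FPKM in loaded cpTi and 3.34, 3.53 and 3.38 FPKM in non-loaded cpTi. The groups overlapped in every comparison. The difference beside Nb3 was 0.06 (SE 0.22, limma adjusted p = 0.843), and its sign turned when FPKM was rescaled by total reads (-0.08).

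Tcf7 (ENSRNOG00000005872, chr10:36423445-36453535, minus strand) encodes TCF1, a transcription factor of naive and memory T cells that is also found in other cells. It had 11.8, 10.4 and 11.1 FPKM in loaded Nb3 and 6.90, 4.41 and 5.12 FPKM in non-loaded Nb3. It had 12.5, 9.73 and 9.67 FPKM in loaded cpTi and 6.51, 9.54 and 5.37 FPKM in non-loaded cpTi. The loaded libraries lay above the non-loaded ones beside both materials, and the ranges of loaded Nb3 and loaded cpTi overlapped. The difference beside Nb3 was 0.92 (SE 0.20, limma adjusted p = 0.00305), called under all 14 alternatives run (0.76 to 1.07).

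Loaded Nb3 replicate 3 thus divided the genes: it was the lowest of its group for 8 of the 10 and the highest for Cd2. Without it, 9 of the 10 genes were called higher beside Nb3, all but Lck, where 2961 of 15268 tested genes were called higher and 6524 either way. Of the 8 genes that pass the filter without the loaded Nb3 libraries, 6 were called with all libraries and 7 without replicate 3. Without loaded Nb3 replicate 2 or non-loaded Nb3 replicate 1, 3 were called. These 2 settings called 3112 and 2943 of 15268 tested genes higher, and 6948 and 6535 either way. Counted without a fit, 6 genes had all 3 loaded Nb3 libraries above all 3 non-loaded ones (Cd3e, Cd8b, Cd2, Icos, Ctla4 and Tcf7, of which Ctla4 was tested only through those libraries), as did 22.9% of all tested genes. In 0 of the 10 did all loaded libraries lie below, against 28% of all tested genes and 50.8% apart either way.

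**Figure D2:**
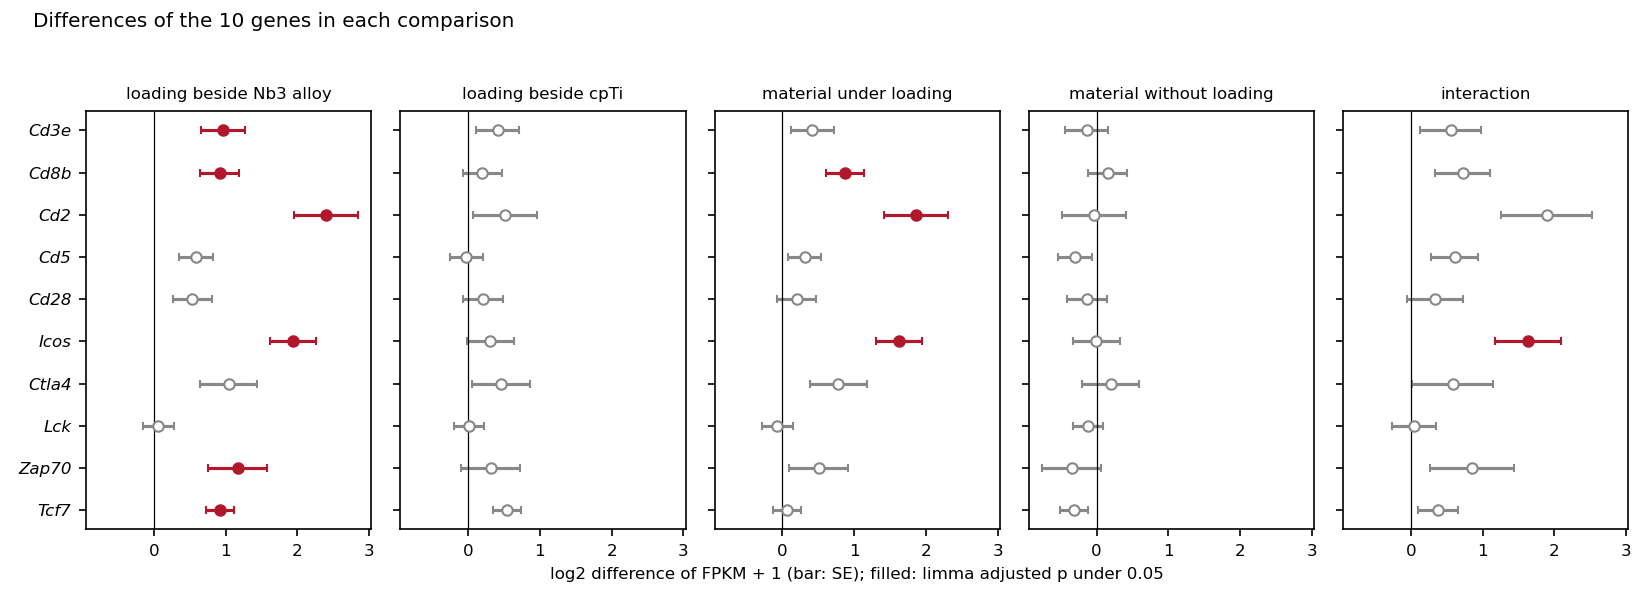
Difference in log2(FPKM + 1) (x axis) of the 10 genes in the 5 comparisons, with 1 panel for each. Points are limma estimates, bars are their standard errors, and filled points are called at an adjusted p under 0.05. The filled points number 6 for loading beside the Nb3 alloy, 3 for material under loading and 1 in the interaction, and 0 in the other panels.

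Beside cpTi, loading was followed by no called gene among the 10, and 0.00655% of all tested genes (1 gene) were called. The limma differences were above 0 for 9 of the 10, with a median of 0.31 against -0.03 over all tested genes. The largest was that of Tcf7 (0.54, SE 0.20), the only 1 of the 10 with an unadjusted p under 0.05 (0.0196, adjusted p = 0.666). Cd2 had 0.51 (SE 0.45), Ctla4 0.46 (SE 0.40), Cd3e 0.41 (SE 0.30) and Icos 0.31 (SE 0.32), and Lck and Cd5 lay at 0.01 and -0.02. limma-voom on reads also called 0 of the 10. In 3 genes, Cd28, Icos and Tcf7, every loaded cpTi library was above every non-loaded one, as in 7% of all tested genes (9.4% had every loaded library below, and 16.4% were apart either way).

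Under loading, bone beside Nb3 had higher levels than bone beside cpTi for 3 of the 10 genes, and lower levels for none. In this comparison 14.7% of all tested genes were called higher and 33.6% either way. Cd2 was 1.86 higher (SE 0.45, limma adjusted p = 0.00897), Icos 1.63 (SE 0.32, adjusted p = 0.00313) and Cd8b 0.87 (SE 0.27, adjusted p = 0.0283). The call for Cd8b was lost in 5 of 14 alternatives: without loaded Nb3 replicate 1 (adjusted p = 0.0575) or 2 (0.0893), without loaded cpTi replicate 2 (0.0823) or 3 (0.0994), and in the fit of the compared groups alone (0.0964). Tcf7 differed by 0.07 (SE 0.20, adjusted p = 0.829), and its sign turned when FPKM was rescaled by total reads (-0.09). The other 6 ranged from -0.07 (Lck) to 0.78 (Ctla4). Without loaded Nb3 replicate 3, 7 of the 10 were called, and 6 of the 8 genes that pass the filter without the loaded Nb3 libraries. In that setting 2108 of 15268 tested genes were called higher and 4735 either way. In 2 genes, Cd2 and Icos, all loaded Nb3 libraries were above all loaded cpTi ones (21% of all tested genes, with 25.5% below and 46.6% apart either way). This comparison uses the same loaded Nb3 libraries as the one by loading, so the 2 are not independent.

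Without loading, the materials differed in none of the 10 genes, and 0% of all tested genes were called. The limma differences of the 10 ran from -0.35 (Zap70, SE 0.42) to 0.20 (Ctla4, SE 0.40), with 2 above 0. Every adjusted p was 1, 0 of the 10 had an unadjusted p under 0.05, and limma-voom also called 0. In 0 of the 10 genes did the groups separate without overlap, against 2.88% of all tested genes higher, 4.41% lower and 7.29% in either direction.

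Whether loading acted differently beside both materials was asked with an interaction term, the difference by loading beside Nb3 minus that beside cpTi. Icos was the only 1 of the 10 that passed (1.63, SE 0.46, limma adjusted p = 0.0284), where 8.42% of all tested genes were called higher and 20.2% either way. The Icos call was lost in 9 of 19 alternatives, with adjusted p values of 0.0504 to 0.130: limma-voom on reads, no filter, and leaving out 1 library at a time for loaded Nb3 replicate 1, loaded cpTi replicates 1 and 3, non-loaded Nb3 replicates 1 and 2, and non-loaded cpTi replicates 2 and 3. Cd2 had the largest estimate, 1.89 (SE 0.63), and missed the threshold (adjusted p = 0.0577). It passed when loaded Nb3 replicate 2 (adjusted p = 0.0444), non-loaded Nb3 replicate 3 (0.0262) or non-loaded cpTi replicate 3 (0.0493) was left out. All 10 estimates were above 0, with a median of 0.60 against -0.02 over all tested genes. Without loaded Nb3 replicate 3, 4 of the 10 were called: Cd3e (0.94), Cd5 (0.88), Zap70 (1.42) and Icos. The same setting called 1292 of 15268 tested genes higher and 3042 either way.

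Levels per length put the genes in a similar order outside loaded Nb3. Tcf7 was the highest of the 10 in the other 3 groups, at 5.47 ± 1.28 FPKM in non-loaded Nb3, 10.6 ± 1.62 in loaded cpTi and 7.14 ± 2.16 in non-loaded cpTi (mean ± SD, n = 3 here and below). Cd2 and Lck came next, and Ctla4 was the lowest, with 0.487 ± 0.183, 0.825 ± 0.558 and 0.308 ± 0.265 FPKM. In loaded Nb3 the order was led by Cd2 (24.4 ± 7.43 FPKM), then Tcf7 (11.1 ± 0.699) and Icos (6.68 ± 3.81), and Cd28 was the lowest (1.30 ± 0.962). Icos stood eighth of the 10 in non-loaded Nb3 (0.843 ± 0.328 FPKM) and seventh in both cpTi groups. Neighbours in the order formed 9 pairs. Their ranges over the libraries were separate in 1 pair in loaded Nb3 and in 2 pairs in each other group. Levels were not compared within each library here, so an overlap does not mean that neighbours had equal levels.

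To describe the genes relative to the receptor complex, each level was divided by that of Cd3e in the same library, a ratio that does not change with the scaling of a library. The ratio of Icos was 1.45, 2.79 and 2.32 in loaded Nb3, and between 0.442 and 1.40 in the other 9 libraries. In log2 it was 1.39 higher than in non-loaded Nb3 and 1.69 higher than in loaded cpTi, without overlap. Of all other tested genes, 1.54% and 2.01% had a ratio to Cd3e that was higher without overlap in these comparisons. The ratio of Lck was 0.850, 1.05 and 1.71 in loaded Nb3 and 2.41, 3.24 and 3.62 in non-loaded Nb3, and 1.95, 1.80 and 1.64 in loaded cpTi against 2.71, 2.06 and 4.39 in non-loaded cpTi. It was thus lower with loading beside both materials, by log2 differences of -1.40 and -0.69, again without overlap.

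Cd5 had log2 differences of its ratio of -0.63 beside Nb3 and -0.73 beside cpTi and no overlap in either. Cd3e itself had differences of 0.96 (called) and 0.41 (not called) by loading, and 49.9% of all other tested genes beside Nb3 and 28.4% beside cpTi had a ratio that was lower without overlap, so the lower ratios of Lck and Cd5 are not particular to them. The ratio of Zap70 to Cd3e lay between 0.688 and 1.45 in all 12 libraries. That of Cd2 was 5.79 and 4.30 in loaded Nb3 replicates 1 and 2 and 24.2 in replicate 3, the highest value of all. Each of the 6 shifts without overlap had p = 0.1 in an exact two-sided permutation test, the smallest that 3 against 3 libraries allow, and 0.6 after adjustment over 36 tests. None passed.

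**Figure D3:**
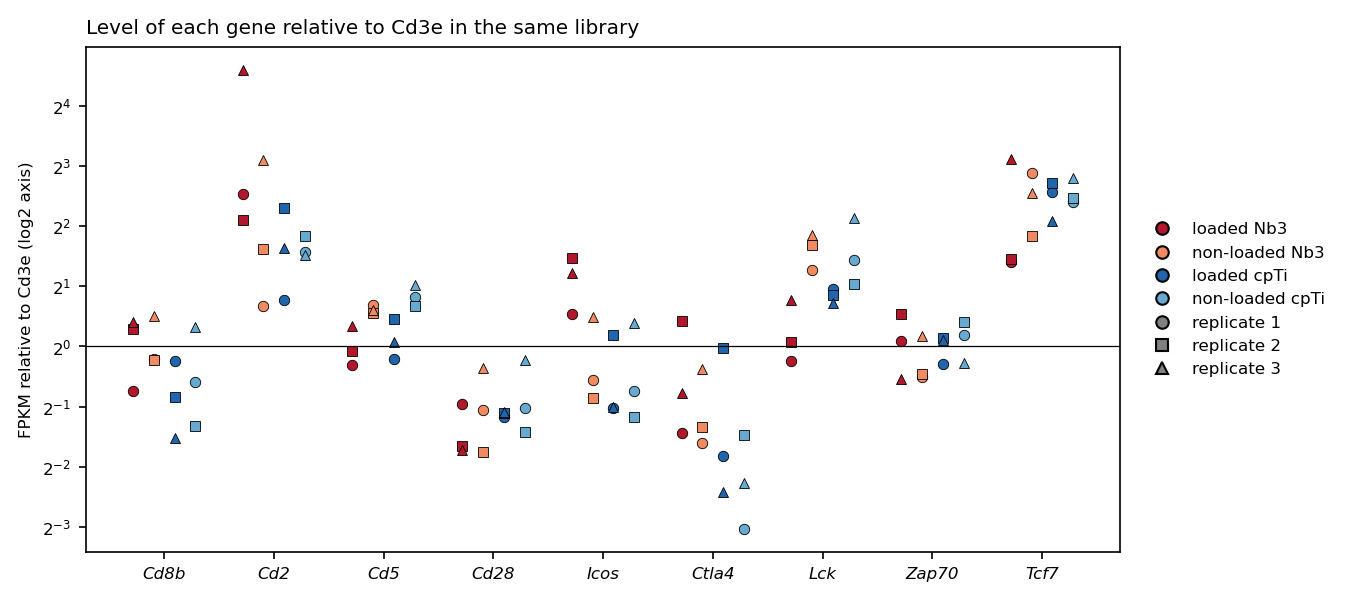
FPKM of 9 genes divided by that of Cd3e in the same library (y axis, log2 scale), with 1 point per library, the group given by colour and the replicate by shape. The Icos ratios of loaded Nb3 (1.45 to 2.79) lie above those of every other library, and the Lck ratios of loaded Nb3 (0.850 to 1.71) lie below those of both non-loaded groups.

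The genes whose rank order over the 12 libraries was most like that of Cd3e were looked for by the mean absolute difference in rank. The search covered 13613 tested genes with a symbol and a mean of at least 1 FPKM, with the members left out. The closest was a row named AABR07017902.1 (ENSRNOG00000009074), which the table describes by its similarity to the mouse T cell receptor alpha constant region, with a difference of 0 ranks. Cxcr3, a chemokine receptor of activated T cells, followed with 0.833, and then Cd3d and the mitochondrial ribosomal protein gene Mrpl38 with 1 each and Malsu1 with 1.17. Of the members, Zap70 was the closest (1), and Cd8b the farthest (3.17), where the median over all genes compared was 4.17. These values share their libraries and carry no test.

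The table also describes 7 rows as constant regions of T cell receptor chains. They were picked after the values were seen and are given as values of the receptor genes. The alpha row is the one just described as closest to Cd3e, so its likeness to Cd3e is no further evidence. It had 4.01, 3.87 and 0.881 FPKM in loaded Nb3 and 0.695 to 0.829 FPKM in non-loaded Nb3 (1.03, limma adjusted p = 0.0252, called in 7 of 14 alternatives). The delta row (ENSRNOG00000065679), which lies inside the span of the alpha row, had 5.05, 4.52 and 2.71 against 1.12 to 1.60 FPKM (1.04, adjusted p = 0.0154, called in 12 of 14). For the delta row, too, replicate 3 was the lowest loaded Nb3 library.

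The 2 beta rows were not called (0.96, adjusted p = 0.130, and 0.48, adjusted p = 0.0716), nor were the 3 gamma rows (-0.92, -0.32 and 0.27). The copies of a constant region resemble each other, and reads could be split between them, so the levels of single copies are uncertain.

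Next to the members stand their binding partners. Cd3d, the CD3 delta chain, had 3.01, 3.81 and 1.48 FPKM in loaded Nb3 and 0.900 to 1.46 FPKM in non-loaded Nb3. Its difference of 0.79 (limma adjusted p = 0.0385) was called, and the call was lost in 9 of 14 alternatives, among them those without loaded Nb3 replicate 1 (adjusted p = 0.106) or 2 (0.127) or non-loaded Nb3 replicate 1 (0.1004) or 3 (0.0994). Cd3g (0.10, adjusted p = 0.891), Cd247 (0.26, adjusted p = 0.495) and Cd8a (0.37, adjusted p = 0.574) were not called. Cd3g had 3.35, 19.3 and 14.6 FPKM in non-loaded Nb3, so that group alone spanned the loaded libraries, and its sign turned under scaling by total reads (-0.07). Cd8a had 6.99, 16.3 and 1.83 FPKM in loaded Nb3 and 4.39 to 4.82 FPKM in non-loaded Nb3. Without loaded Nb3 replicate 3 both Cd247 (0.63, adjusted p = 0.0390) and Cd8a (1.05, adjusted p = 0.0241) passed.

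The adaptors below ZAP70 went apart. Lat was called higher beside Nb3 (0.77, limma adjusted p = 0.0309), with 38.2, 27.0 and 14.7 FPKM in loaded libraries against 12.6 to 15.0 FPKM, and lost the call in 8 of 14 alternatives, among them each left-out Nb3 library other than loaded replicate 3 (adjusted p = 0.0558 to 0.113). Lcp2, which encodes SLP-76, was called lower (-0.89, adjusted p = 0.0247), with 15.4, 26.9 and 11.3 against 27.1 to 40.8 FPKM, and lost the call in 4 of 14: without loaded Nb3 replicate 1 (0.0708) or 3 (0.0910), without non-loaded Nb3 replicate 3 (0.0976) and in the fit of the compared groups alone (0.0667). SLP-76 is also used by platelets, mast cells and neutrophils.

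Costimulatory ligands and receptors of antigen-presenting cells were read next. Icoslg, the ligand of ICOS, had 7.92, 7.16 and 4.59 FPKM in loaded Nb3 and 2.22, 1.74 and 2.13 FPKM in non-loaded Nb3. Beside cpTi it had 2.99, 3.82 and 2.81 FPKM with loading and 2.74, 3.56 and 2.83 FPKM without. All loaded Nb3 libraries lay above all others. Its difference beside Nb3 was 1.29 (SE 0.19, limma adjusted p = 0.000290), and it was called under all 14 alternatives run.

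The ligands of CD28 and CTLA4, Cd80 (0.16, limma adjusted p = 0.571) and Cd86 (-0.13, adjusted p = 0.829), and the CD2 ligand Cd48 (-0.08, adjusted p = 0.761) were not called. Cd48 had 41.0 to 63.4 FPKM in loaded Nb3 and 40.0 to 61.4 FPKM in non-loaded Nb3, ranges that overlap almost wholly. Of these 4 ligands of members, Icoslg was thus the only one called. In the whole list of 10 costimulatory molecules of antigen-presenting cells, 7 were tested, 3 were called higher and 0 lower. The other 2 do not bind a member. They were Tnfsf9 (1.59, adjusted p = 0.00737), the 4-1BB ligand, and Cd40 (0.77, adjusted p = 0.0367), which receives the CD40 ligand of T cells and lost the call in 7 of 14 alternatives, among them each left-out Nb3 library other than loaded replicate 3 (adjusted p = 0.0635 to 0.114). Cd274 (PD-L1) narrowly missed it (0.89, adjusted p = 0.0516), and 5 alternatives called it.

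**Figure D4:**
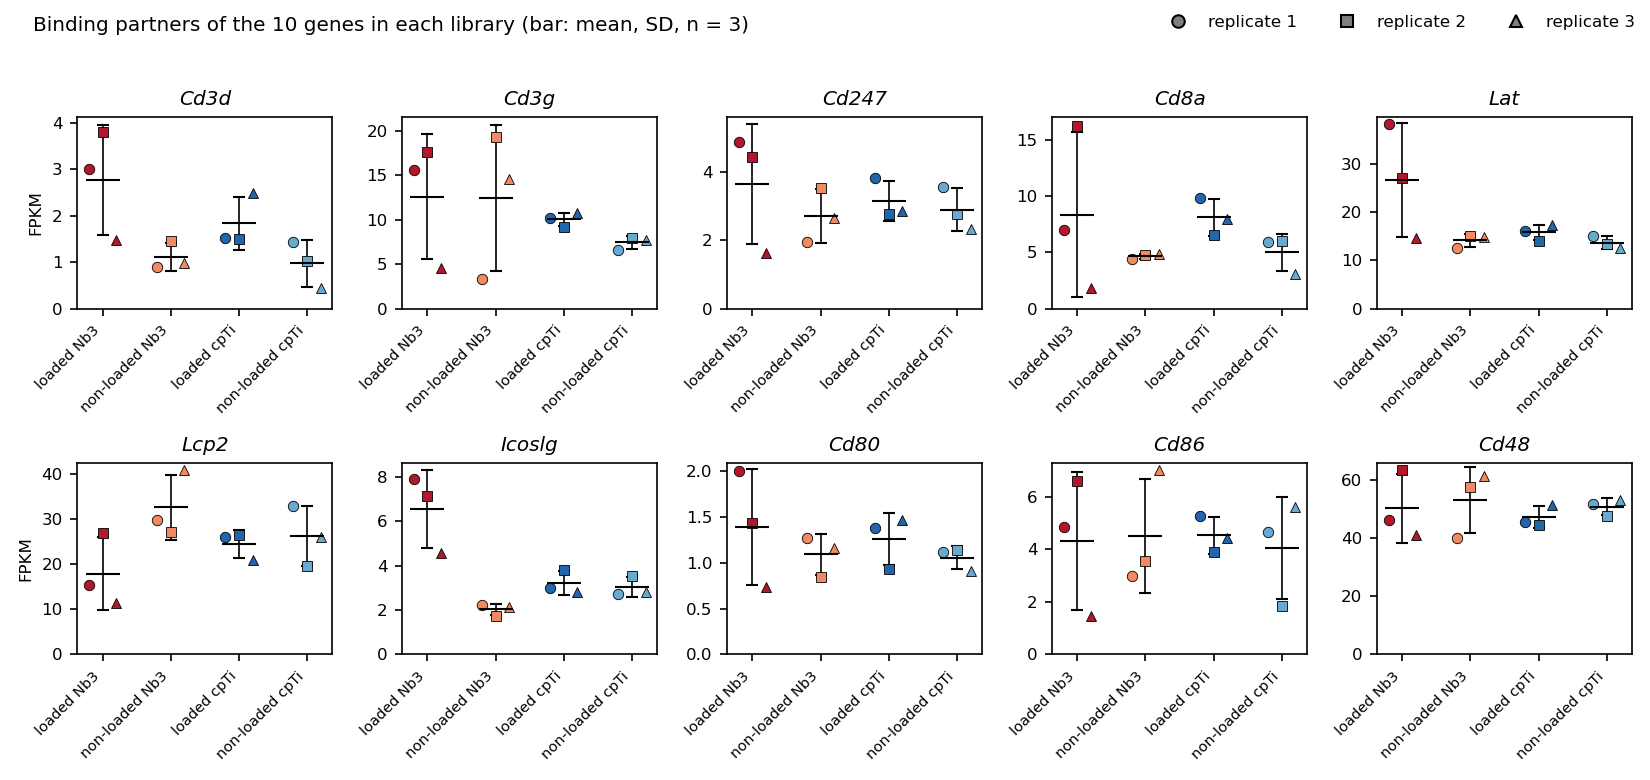
FPKM (y axis, linear, from 0) of 10 binding partners in each of the 12 libraries, by group (x axis), with the mean and SD of 3 libraries as bars and the replicate number given by the shape. Icoslg is higher in the 3 loaded Nb3 libraries (4.59 to 7.92 FPKM) than in any other, while Cd80, Cd86 and Cd48 overlap between groups.

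The wider lists of T cell genes went in different directions. Of 35 tested genes of the receptor complex and proximal signalling other than the members, 4 were called higher beside Nb3 (Plcg1, Fyn, Lat and Cd3d) and 16 lower, with a median of -0.46. Grap2, an adaptor that links LAT to SLP-76, had 0.886, 0.722 and 0.798 FPKM in loaded Nb3 and 18.7 to 31.0 FPKM in non-loaded Nb3 (-3.87, limma adjusted p = 8.59e-07). The other lower genes with the smallest p were negative regulators of the receptor signal: Ubash3a (-1.74, adjusted p = 0.000274), Ptpn22 (-1.11, adjusted p = 0.000486) and Csk (-0.96, adjusted p = 0.000504). The number called higher ranged from 1 to 8 and that called lower from 12 to 18 over the alternatives, with 8 and 12 when loaded Nb3 replicate 3 was left out and 1 and 18 under scaling by total reads. Many genes of this list are used by other blood cells as well.

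Of 11 other costimulatory and inhibitory receptors tested, Lag3 was called higher, and Cd226 and Btla lower. Lag3, an inhibitory receptor that binds MHC class II, had 11.6, 17.2 and 4.58 FPKM in loaded Nb3 and 1.41 to 1.71 FPKM in non-loaded Nb3 (2.06, limma adjusted p = 0.000561). Cd226, an activating receptor also of natural killer cells and platelets, had 1.55, 1.96 and 0.799 against 7.01 to 10.6 FPKM (-2.07, adjusted p = 0.000352). Btla, an inhibitory receptor also of B cells, had 0.437 to 0.656 against 2.04 to 2.94 FPKM (-1.08, adjusted p = 0.00129). Tigit was not called (0.71, adjusted p = 0.0876). Without loaded Nb3 replicate 3, 3 receptors of this list were called higher (Lag3 and, named after their values were seen, Tnfrsf4 and Tnfrsf18) and 2 lower. CD4, FOXP3 and the CD40 ligand were not analysed here.

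Of 9 other T cell transcription factors tested, 1 was called higher and 5 lower. The higher one was Bcl11b, needed for T cell commitment (0.95, limma adjusted p = 0.00372, named after its value was seen). It had 1.26, 2.13 and 1.48 FPKM in loaded Nb3 and 0.282 to 0.407 FPKM in non-loaded Nb3. Its loaded Nb3 libraries alone thus met the filter on low values. Whether Bcl11b or other genes of the lists would pass without them was not checked. The lower ones were led by Ikzf1 (-2.75, adjusted p = 2.89e-05) and Ikzf3 (-2.73, adjusted p = 2.20e-05), Ikaros family factors of lymphoid and other blood cells, then Satb1 (-1.19) and Lef1 (-1.54), the relative of TCF1. Lef1 and Tcf7 thus went in opposite directions in the same libraries.

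Of the 8 homing and cytokine receptors reported here, 5 were called higher, a count that was 7 without loaded Nb3 replicate 3 and 3 in the fit of the compared groups alone or without non-loaded Nb3 replicate 1. S1pr1, which guides lymphocyte exit from tissues and is abundant in endothelium, rose by 1.46 (limma adjusted p = 0.000222). Ccr7, the lymph node homing receptor, rose by 1.19 (adjusted p = 0.00205), and Il2ra, the interleukin 2 receptor alpha chain, by 1.29 (adjusted p = 0.00321). Il2rg, the receptor chain shared by interleukin 2 and related cytokines, had 26.1, 48.0 and 15.6 FPKM in loaded Nb3 and 12.6 to 14.3 FPKM in non-loaded Nb3, without overlap. Its difference of 0.97 (adjusted p = 0.0216) missed the threshold without non-loaded Nb3 replicate 1 (adjusted p = 0.0518) or 3 (0.0633) and in the fit of the compared groups alone (0.0789).

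Markers of B cells, neutrophils, erythroid cells and mast cells were far lower in loaded Nb3. All 12 B cell markers tested were called lower, and their summed level was 79.1 to 114 FPKM against 450 to 760 FPKM in non-loaded Nb3. Likewise all 9 tested neutrophil markers (sum 120 to 339 against 4818 to 13812 FPKM), 9 of 9 erythroid markers (32.2 to 58.2 against 1686 to 2240 FPKM) and 6 of 6 mast cell markers (14.8 to 27.3 against 105 to 173 FPKM) were called lower. None of these B cell, neutrophil, erythroid or mast cell markers was at 0 in all loaded Nb3 libraries.

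Of 4 thymocyte and precursor genes 3 were lower (sum 12.9 to 17.2 against 40.1 to 68.3 FPKM). Of 6 natural killer and cytotoxic genes 2 were lower, Nkg7 (-5.25, limma adjusted p = 1.27e-05) and Klrk1 (-1.09, adjusted p = 0.00815), and 0 higher. Gzmk (0.49, adjusted p = 0.299) and Prf1 (0.28, adjusted p = 0.455) were not called, though Prf1 passed without loaded Nb3 replicate 3 (0.64, adjusted p = 0.0378). Gzma was at 0 in all 3 loaded Nb3 libraries.

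Of 10 monocyte and macrophage markers 2 were higher and 2 lower, a count of 3 and 1 without loaded Nb3 replicate 3 and of 1 and 3 without replicate 2, with sums of 947 to 3974 FPKM in loaded Nb3 and 2879 to 4405 FPKM in non-loaded Nb3. Loaded Nb3 replicate 3, the lowest for Cd3e, Zap70 and Cd28, also had the lowest of these sums. Of 6 dendritic cell markers 2 were higher and 0 lower (sum 24.5 to 47.5 against 27.7 to 34.3 FPKM), and 1 was higher when loaded Nb3 replicate 2 or 3 or non-loaded Nb3 replicate 2 or 3 was left out. Without loaded Nb3 replicate 2, 1 marker was also called lower. The fit of the compared groups alone, the replicate block and scaling by total reads or by reads outside the mitochondrial chromosome also called 1 higher. Of the 11 bone genes 2 were higher and 0 lower, and 9 were higher without loaded Nb3 replicate 2, whose sum was the lowest of its group (7202 FPKM). The part of these other cell types in the differences of the 10 genes was not tested.

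**Figure D5:**
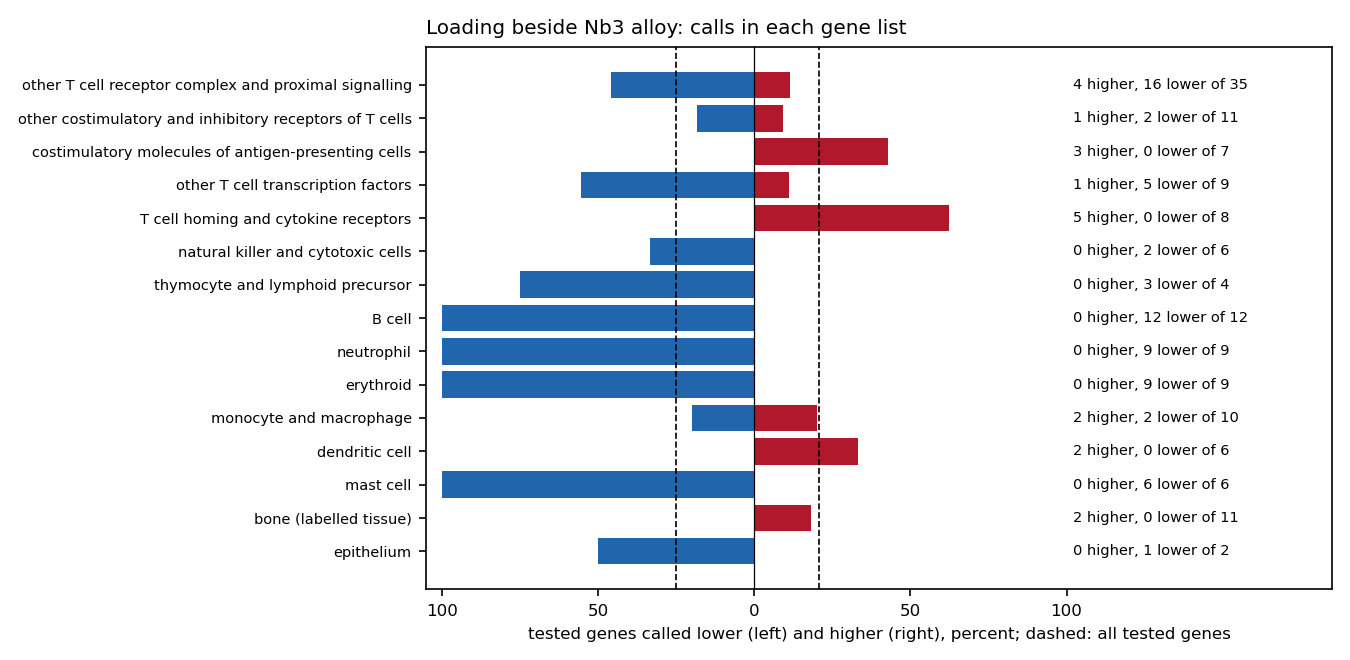
Share of tested genes called lower (left, blue) and higher (right, red) with loading beside the Nb3 alloy in 15 gene lists, in percent, with the counts at the right. Dashed lines mark the shares over all tested genes, 25.2% lower and 20.7% higher; the B cell, neutrophil, erythroid and mast cell lists are called lower throughout.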

How the data were processed

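RNA of peri-implant bone was sequenced as polyadenylated libraries (TRIzol, NEBNext Ultra), per the labels' protocols. The authors deposited 1 table of FPKM per gene. In the submitters' processing notes stand, without roles, HISAT2 2.0.5, fastp, DESeq2 1.20.0, CASAVA 1.8 and featureCounts 1.5.0-p3. For the genome build, the annotation and the use of strand in counting, nothing is given in the sources used here. Multiplied by gene length, 100% of deposited FPKM values fell within 0.01 of whole reads (12.9 M to 22.3 M per library). These reads served limma-voom, the scalings by total reads and by reads outside the mitochondrial chromosome, and the read counts and mitochondrial shares given here. Because the table held FPKM, the fallback of the design was used: limma 3.58.1 (R 4.3.3) on log2(FPKM + 1), 1 mean per group, 12 libraries, 8 residual degrees of freedom, trended robust moderation, adjusted over 15268 genes. Differences on this scale understate changes of low genes. The fit was also run on simulated data, and no outcome of that run is used here. The simulated spread was common to all genes and taken from the groups other than loaded Nb3, so the run does not bear on the spread in loaded Nb3. Of the homing and cytokine receptors, 1 gene is not reported here and stands in none of that list's counts. The members and lists were chosen with earlier results of these data known. Named are all members, their binding partners, and from each list up to 4 genes by smallest p for loading beside Nb3 and 2 called ones elsewhere; from the lists of B cell, neutrophil, erythroid, mast, thymocyte, monocyte, dendritic, bone and epithelial markers counts are given instead. Epithelial markers (2 tested, 1 lower) complete the lists. Alternatives were pseudocount 0.1, no filter, 3 other scalings, limma-voom, a replicate block, a fit of only those groups that are compared, and leaving out single libraries.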

Additional observations from a re-analysis of the deposited data

Results flagged for a closer look

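The effect of loading beside Nb3 differed from that beside cpTi, by the limma interaction term at an adjusted p under 0.05, for the genes below (log2 differences of the 2 effects). Only the members, their binding partners and genes picked by smallest p from the T cell, ligand and natural killer lists were considered. Among the 10 members it was Icos (1.63, adjusted p = 0.0284). Among ligands and homing receptors it was Icoslg (1.24, adjusted p = 0.00925), S1pr1 (1.24, adjusted p = 0.0133) and Ccr7 (1.10, adjusted p = 0.0410). Icos and its ligand are thus both on this list, with the same sign, where 8.42% of all tested genes were called higher and 20.2% either way. Whether the 2 are linked was not tested. Among genes of proximal signalling it was Grap2 (-3.61, adjusted p = 9.02e-05), Ubash3a (-1.54, adjusted p = 0.0127), Ptpn22 (-1.01, adjusted p = 0.0174) and Csk (-0.77, adjusted p = 0.0293). In that list 7 of 35 tested genes passed, all with a negative sign. Ptprc, Prkcq and Ptpn6 were among them and had not been picked. Among receptors it was Cd226 (-2.37, adjusted p = 0.00453) and Cd27 (-1.43, adjusted p = 0.0442), and among natural killer genes Nkg7 (-4.65, adjusted p = 0.00113) and Klrk1 (-1.50, adjusted p = 0.0219). Among transcription factors it was Ikzf1 (-2.25, adjusted p = 0.00355), Ikzf3 (-1.85, adjusted p = 0.00745), Satb1 (-1.17, adjusted p = 0.00530) and Lef1 (-1.43, adjusted p = 0.0339). Over the 19 alternatives of the interaction, the call was lost in 14 for Ccr7, 11 for Cd27, 10 for Lef1, 9 for Icos, 7 for Csk and 3 for Klrk1. It was lost in 0 for the others given here with a value. Cd27, a costimulatory receptor not described above, had 2.35, 2.03 and 0.415 FPKM in loaded Nb3, 2.14, 2.99 and 3.02 FPKM in non-loaded Nb3, 6.73, 4.28 and 5.63 FPKM in loaded cpTi and 2.69, 3.69 and 1.80 FPKM in non-loaded cpTi. Neither effect of loading on Cd27 was called by limma (-0.60 beside Nb3, adjusted p = 0.141, and 0.83 beside cpTi, adjusted p = 0.672).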

How the results depend on the processing

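Over the alternatives, the estimates of the 10 genes kept direction and side of the threshold in 115 of 140 cases for loading beside Nb3, 134 of 140 beside cpTi, 126 of 140 for material under loading, 132 of 140 without loading and 170 of 190 in the interaction. Leaving out 1 library at a time, the number of members called ranged from 3 to 9 for loading beside Nb3, 2 to 7 for material under loading and 0 to 4 in the interaction, where limma-voom and no filter gave 0. Of 15268 tested genes, those called numbered 5599 to 6948 for loading beside Nb3 and 3429 to 4838 for material under loading. They numbered 0 to 4 beside cpTi and without loading and 1986 to 3159 in the interaction. Those called higher numbered 2466 to 3112 for loading beside Nb3, 1353 to 2108 for material under loading and 738 to 1292 in the interaction. Beside cpTi, where 1 gene was called, limma-voom, pseudocount 0.1 and the compared groups alone called 0, no filter 2 and quantile normalization 3. Without loading, no filter called 1 gene. Scaling by total reads moved the median of all tested genes to -0.17 for loading beside Nb3, with 2266 higher and 4670 lower against 3156 and 3840 (quantile normalization 3573 and 3337). For material under loading the median was -0.15, with 1357 higher and 3671 lower against 2239 and 2884 (2727 and 2456), and in the interaction -0.18, with 843 and 2386 against 1285 and 1804.

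Signs turned only in estimates that were not called. Under scaling by total reads these were Lck (-0.084 for loading beside Nb3, -0.10 in the interaction), Tcf7 (-0.094 for material under loading) and Cd3g (-0.066), and under quantile normalization Lck (0.016, material under loading) and Icos (0.13, material without loading). With 1 library left out, the values for loading beside Nb3 ran from -0.10 to 0.27 for Lck, -0.575 to 0.66 for Cd3g, -0.27 to 0.053 for Cd48, -0.021 to 0.37 for Cd80, -0.46 to 0.35 for Cd86 and -0.25 to 1.05 for Cd8a. Beside cpTi they ran from -0.0058 to 0.31 for Cd8b, -0.17 to 0.11 for Cd5 and -0.083 to 0.15 for Lck. For material under loading they ran from -0.11 to 0.52 for Cd28 and -0.21 to 0.13 for Lck. Without loading they ran from -0.30 to 0.011 for Cd3e, -0.47 to 0.42 for Cd2, -0.14 to 0.078 for Icos and -0.27 to 0.042 for Lck, and Lck ran from -0.12 to 0.25 in the interaction. The cause was not tested.

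Deviations of same-numbered libraries correlated over 0.1 in 0, 1, 0 and 0 of 3 pairs in the 4 simple comparisons. With so few pairs, whether the replicate numbers pair the libraries cannot be decided. With the replicate block, 6568, 0, 4591, 0 and 2608 genes were called in the 5 comparisons (loading beside Nb3, loading beside cpTi, material under loading, material without loading, interaction), against 6996, 1, 5123, 0 and 3089, and 7 of the 10 members for loading beside Nb3. The fit of only the compared groups gives no interaction. With 3 libraries a group and as few as 2 reads for Ctla4, small differences were not detectable at this depth.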
